A study of Mus musculus with 4 samples.

Results

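The 7 genes described here, *Angpt1*, *Angpt2*, *Tek*, *Tie1*, *Ptprb*, *Apln* and *Aplnr*, encode ligands, receptors and a phosphatase of angiopoietin, Tie and apelin signalling. They were taken by gene symbol from the 32285 genes of single-cell RNA sequencing matrices of fetal mouse ventricles, and all 7 were found there. The study compared 2 control libraries (Tie2Cre;*Ets1* fl/+) with 2 *Ets1* eKO libraries (Tie2Cre;*Ets1* fl/fl), to ask what loss of the transcription factor Ets1 in endothelium does to the cells of the ventricle at embryonic day 14.5 (E14.5). Each library pooled the ventricles of 3 embryos from a colony kept on a C57BL/6 background, and the labels name a single batch, 1, for the 4 libraries. Several features limit the comparison. The controls carried Tie2Cre as well and were heterozygous for the floxed allele, so the contrast is between 1 and 2 floxed copies. The Cre is driven by the promoter of *Tek* (also called Tie2), itself one of the 7 genes, and cells that descend from endothelium, such as cushion mesenchyme, are known to carry its recombination. Pooling leaves no value for a single embryo.

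Angiopoietin 1, made by perivascular and myocardial cells, activates the endothelial receptor Tie2 and stabilises vessels, whereas angiopoietin 2 mostly opposes it and the related receptor Tie1 modulates the response. The phosphatase VE-PTP, the product of *Ptprb*, removes phosphate from Tie2 and so restrains its signal. Apelin is a peptide made by sprouting endothelial cells that acts on the G protein-coupled receptor Aplnr, which in the developing heart marks vessels that grow from the sinus venosus and veins.

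Unique molecular identifiers (UMIs), which count captured transcripts, numbered 124140739 in 12641 barcodes of control replicate 1 and 76931208 in 7949 barcodes of control replicate 2. *Ets1* eKO replicate 1 held 95131419 UMIs in 10010 barcodes and *Ets1* eKO replicate 2 held 102872196 in 14951. The median barcode had 8630 and 8369 UMIs in the controls against 8222 and 5632 in *Ets1* eKO, so *Ets1* eKO replicate 2 was the shallowest library per cell. Filters on gene number and on hemoglobin, mitochondrial and ribosomal shares kept 41563 of 45551 barcodes. A total of 191 barcode sequences occurred in more than 1 library, between 19 and 47 for a pair of libraries.

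The libraries differed in sex makeup in a way that ran partly with genotype, most clearly in control replicate 1 and *Ets1* eKO replicate 2. In cvEC-like cells (defined below) *Xist*, which is transcribed from the inactive X chromosome, stood at 0 and 287 CPM (UMIs of a gene in each 1e6 UMIs) in controls and at 267 and 520 CPM in *Ets1* eKO. The Y-linked genes *Ddx3y*, *Uty*, *Kdm5d* and *Eif2s3y* together gave 198 and 112 CPM in controls against 87.3 and 3.09 CPM in *Ets1* eKO. Control replicate 1 thus held no *Xist* count and *Ets1* eKO replicate 2 almost no Y-linked count, while control replicate 2 and *Ets1* eKO replicate 1 held both. Among the 7 genes *Apln* lies on the X chromosome. A fit with the *Xist* level as a term, chosen after seeing the data, is therefore among the alternatives, and values within cells of 1 sex are given for *Apln* in cvEC-like and *Tek* in mEndo-like cells.

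Cells were placed in classes by marker genes, none of which is among the 7. Mural endocardial (mEndo-like) cells numbered 4366, valve endocardial (vEndo-like) cells 666 and coronary vascular endothelial (cvEC-like) cells 1434. Outside the endothelium there were 20567 cardiomyocyte-like, 7755 fibroblast-like, 339 mural-like, 718 epicardial-like and 804 immune-like cells. The genes with the highest fold in each class included its own markers, such as *Plvap*, *Adgrg6* and *Npr3* in mEndo-like, *Wnt4* in vEndo-like and *Fabp4*, *Gpihbp1* and *Cldn5* in cvEC-like cells. Since the same markers defined the classes, this lead is no test of them. The leading genes of fibroblast-like cells included the marker *Lum* but also *Sox9* and *Col9a1*, which are known from cushion mesenchyme. A class defined by a score is a range and not a sharp type: 168 of 7056 endothelial cells lay within 0.1 of the cvEC threshold, 287 within 0.1 of the mEndo threshold and 483 within 0.1 of the vEndo threshold. The median cvEC-like cell scored 0 on the mEndo, vEndo and fibroblast lists and 1.23 on its own, whereas the median vEndo-like cell scored 0.77 on the mEndo list and 0.72 on its own. Cells past the thresholds of 2 or more of the 6 main lists, which can be doublets, numbered 3043 and were left out, except that mural-like and epicardial-like cells could also pass the fibroblast threshold. Summed markers of the mEndo list stood at 4887 and 4663 CPM in mEndo-like cells of controls and at 3755 and 3490 CPM in *Ets1* eKO, so the numbers of cells in the classes were not compared between groups.

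*Ets1* (ENSMUSG00000032035, chromosome 9 from 32636221 to 32757820, GRCm38), the deleted gene, was read first as a check of the labels. In mEndo-like cells it stood at 280 and 258 CPM in controls and at 119 and 92.5 CPM in *Ets1* eKO, in vEndo-like cells at 299 and 293 CPM against 120 and 107 CPM, and in cvEC-like cells at 374 and 329 CPM against 178 and 129 CPM. Both *Ets1* eKO libraries lay below both controls in each class. The log2 change was -1.29 (SE 0.15) in mEndo-like, -1.34 (SE 0.17) in vEndo-like and -1.11 (SE 0.17) in cvEC-like cells, lower in 2 of 2 *Ets1* eKO libraries each time. By edgeR's quasi-likelihood test, adjusted after Benjamini-Hochberg, p was 0.000562 (1.87e-17 to 0.021 over the alternatives), 0.00131 (4.82e-10 to 0.0228) and 0.0113 (7.39e-14 to 0.191). The call in cvEC-like cells was lost only with the *Xist* level as a term (log2 change -0.83), and those in endocardium passed in 13 of 13 alternatives. Fibroblast-like cells held 97.1 and 83.9 CPM in controls against 60.3 and 57.5 CPM in *Ets1* eKO, a log2 difference of -0.53 (SE 0.13) that passed the threshold only in 2 of 13 alternatives, with no filter on low counts (-0.54) and with a crossed pairing (-0.52). Endothelial markers in these cells were lower in *Ets1* eKO too, at 359 and 329 CPM against 232 and 309 CPM. Their part in the *Ets1* difference was not tested. In cardiomyocyte-like cells, where *Ets1* was scarce, the difference went the other way: 7.18 and 7.19 CPM in controls against 9.16 and 9.95 CPM in *Ets1* eKO, a log2 difference of 0.52 (SE 0.13, 0.40 to 0.61 over the alternatives) that passed the threshold in 1 of 13 alternatives. A UMI does not tell which exon of *Ets1* it came from, and the deleted exons are not given in the sources used here. So the counts that remain can come from transcripts with or without the deleted exons. *Ets1* overlaps an antisense gene, *Gm27240*, and whether the counting used strand is not given in the sources used here.

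UMIs were summed per library and class and compared across the 2 against 2 libraries with edgeR's quasi-likelihood test, and genes with p at or under 0.05 after Benjamini-Hochberg adjustment are called changed. In cvEC-like cells 90 of 11202 genes tested changed (0.803%), with 1481 at an unadjusted p under 0.05 and 67 by DESeq2. Of the 6 members tested 1 changed, *Apln*, with 2 at an unadjusted p under 0.05 and 1 by DESeq2. In mEndo-like cells 483 of 12931 genes changed (3.74%), with 2845 at an unadjusted p under 0.05 and 408 by DESeq2. Of the 6 members 0 changed by edgeR, with 3 at an unadjusted p under 0.05 and 1 by DESeq2. In vEndo-like cells 43 of 9952 genes changed (0.432%), with 1055 at an unadjusted p under 0.05 and 24 by DESeq2. Of the 3 members 0 changed by edgeR, with 1 at an unadjusted p under 0.05 and 0 by DESeq2. Whether the number of calls among the members differs from that of other genes was not tested. Where both *Ets1* eKO libraries lie on the same side of both controls, that is a description. An exact permutation test over 2 against 2 libraries gives p = 0.33 at best. The share of all genes that separate in this way is not given here, and the classes share the same 4 libraries.

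Outside the endothelium edgeR called few genes. In cardiomyocyte-like cells it called 0 of 16448 genes (0%), with 1705 at an unadjusted p under 0.05 and 27 by DESeq2, and 0 of the 7 members, with 1 at an unadjusted p under 0.05 and 1 by DESeq2. In fibroblast-like cells 6 of 14824 genes changed by edgeR (0.0405%), with 1637 at an unadjusted p under 0.05 and 138 by DESeq2. Of the 6 members edgeR called 0, with 0 at an unadjusted p under 0.05 and 0 by DESeq2. In mural-like cells edgeR called 0 of 8925 genes (0%), with 583 at an unadjusted p under 0.05 and 2 by DESeq2, and 0 of 2 members, with 0 at an unadjusted p under 0.05 and 0 by DESeq2. Epicardial-like cells gave 9 changed genes of 9809 by edgeR (0.0918%), with 730 at an unadjusted p under 0.05 and 0 by DESeq2. Of the 2 members edgeR called 0, with 1 at an unadjusted p under 0.05 and 0 by DESeq2. Immune-like cells gave 13 of 8750 by edgeR (0.149%) and 6 by DESeq2, and 0 of the members reached the count needed for a test there. Whether changes differed between mEndo-like and cvEC-like cells was tested with a class by condition term. That term passed the threshold for 428 of 13050 genes by edgeR (3.28%), with 1753 at an unadjusted p under 0.05 and 49 by DESeq2. It passed for 0 of the 7 members by edgeR, with 1 at an unadjusted p under 0.05 and 0 by DESeq2.

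**Figure D1:**
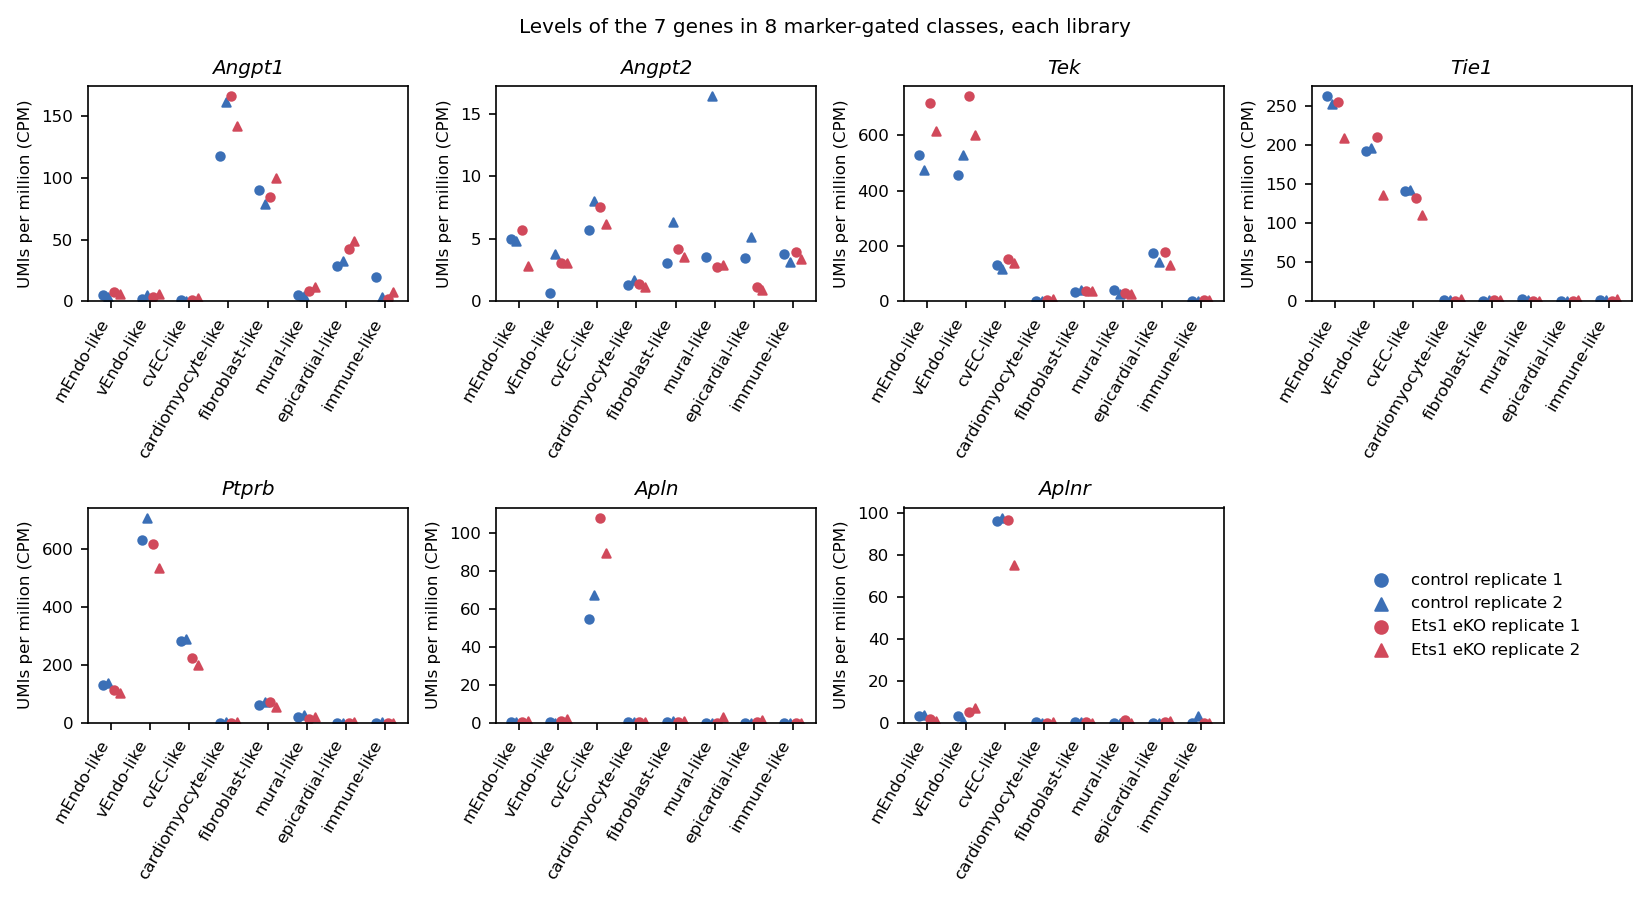
Level of each gene (CPM, y axis) in 8 marker-gated classes (x axis), with 1 point for each of the 2 control and 2 *Ets1* eKO libraries. Among these classes *Apln* and *Aplnr* were highest in cvEC-like cells, and *Tie1* was found mainly in endothelial classes. *Tek* was highest in mEndo-like and vEndo-like cells and also present in epicardial-like cells. *Ptprb* was highest in vEndo-like cells and also present in fibroblast-like cells. *Angpt1* was found mainly in cardiomyocyte-like and fibroblast-like cells.

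*Angpt1* (ENSMUSG00000022309, chromosome 15 from 42424723 to 42676977, GRCm38) encodes the ligand that activates Tie2. Cardiomyocyte-like cells held 80.7% and fibroblast-like cells 11.2% of its 40246 UMIs in all cells kept. It stood at 118 and 162 CPM in cardiomyocyte-like cells of controls against 166 and 142 CPM in those of *Ets1* eKO, and the groups overlapped. Over the 4 libraries the order was cardiomyocyte-like (147 ± 22.2 CPM, mean ± SD, n = 4), fibroblast-like (88.6 ± 9.30), epicardial-like (38.4 ± 9.26) and then immune-like cells (8.11 ± 8.35). The immune-like mean rested on control replicate 1, with 20.0 CPM, while the other 3 libraries lay between 1.59 and 7.68 CPM, and the mean was 2.39 CPM under a stricter and 14.1 CPM under a looser gate. The first 3 classes did not overlap with each other or with the next. Below them the ranges of neighbouring classes overlapped, down to cvEC-like cells at 1.20 ± 1.08 CPM. Epicardial-like cells held 28.6 and 33.0 CPM in controls against 42.8 and 49.0 CPM in *Ets1* eKO. Both *Ets1* eKO values there were above both controls, but the log2 change of 0.64 (SE 0.25) had an adjusted p of 0.555 (edgeR's quasi-likelihood test, Benjamini-Hochberg, 0.395 to 1.00 over the alternatives). The log2 changes in cardiomyocyte-like and fibroblast-like cells were 0.26 (SE 0.17) and 0.22 (SE 0.14), and 0 of 13 alternatives passed the threshold in either. In mEndo-like cells *Angpt1* was scarce, with 5.23 and 3.28 CPM in controls against 7.30 and 6.12 CPM in *Ets1* eKO. Both *Ets1* eKO values were the higher ones, and the log2 difference of 0.69 (SE 0.30, 0.31 to 1.19 over the alternatives) passed the threshold in 0 of 13 alternatives. The mean there depended on the gate, with 5.48 CPM under the main and 13.7 CPM under a looser one. Fibroblast markers in mEndo-like cells were higher in *Ets1* eKO as well, at 527 and 484 CPM against 689 and 665 CPM. Their part in the *Angpt1* difference was not tested. The gene overlaps an antisense gene, *Gm17473*, so with strand use unknown its counts are uncertain. Over the 32 points of 8 classes and 4 libraries, which share library and depth, the genes most like *Angpt1* among 11940 were *Scube2*, *Lbh* and *Atp1b1* (Pearson r of log2(CPM + 1) 0.91, 0.90 and 0.89).

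*Angpt2* (ENSMUSG00000031465, chromosome 8 from 18690263 to 18741562, GRCm38) encodes the ligand that mostly opposes Angpt1 at Tie2. It was scarce in every class, with 949 UMIs in all cells kept. Its highest mean was in cvEC-like cells, with 5.72 and 8.03 CPM in controls against 7.55 and 6.18 CPM in *Ets1* eKO, and these groups overlapped. The order went on with mural-like (6.41 ± 6.68 CPM, n = 4), mEndo-like (4.59 ± 1.24) and fibroblast-like cells (4.31 ± 1.44) and ended with cardiomyocyte-like cells (1.37 ± 0.23). All neighbours in this order overlapped. The mural-like mean rested on control replicate 2, with 16.4 CPM, while the other 3 libraries lay between 2.74 and 3.56 CPM. At 2000 UMIs a cell, *Angpt2* was seen in 1.32% and 0.96% of cvEC-like cells of controls and in 1.36% and 1.81% of those of *Ets1* eKO, against 1.32%, 0%, 1.11% and 0.41% of immune-like cells. Without thinning the shares were 7.49% and 10.3% against 7.91% and 4.44% in cvEC-like cells and 2.40%, 2.02%, 1.83% and 1.25% in immune-like cells, so cvEC-like cells had the larger share in each library when cells kept their own depth. A count of 0 in the 87 immune-like cells of control replicate 2 allows a share of up to 3.45%. *Angpt2* lies within *Mcph1* on the opposite strand, so with strand use unknown its counts are uncertain. The genes with the most similar pattern were *Pik3c2a*, *Api5* and *Rpn2* (r 0.78, 0.72 and 0.72, 32 points).

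*Apln* (ENSMUSG00000037010, chromosome X from 48025146 to 48034853, GRCm38), which encodes the apelin peptide, was the only member that changed. The promoter is shown because this gene passed the test after loss of an ETS factor. RefSeq (GRCm38.p6) promoter entries were matched for 3 of the 7 genes (*Tek*, *Tie1* and *Apln*), and no entry was matched for *Angpt1*, *Angpt2*, *Ptprb* and *Aplnr*. Letters of the ETS core, GGAA, and the longer strings CCGGAAG and CAGGAAG, which contain it, were searched on both strands in the 250 bases before the start. The window of *Apln* (chrX:48034854-48035103, minus strand, 5′ to 3′, capitals marking GGAA or its complement TTCC) held 3 matches of GGAA, 1 of CAGGAAG and 0 of CCGGAAG.
Apln: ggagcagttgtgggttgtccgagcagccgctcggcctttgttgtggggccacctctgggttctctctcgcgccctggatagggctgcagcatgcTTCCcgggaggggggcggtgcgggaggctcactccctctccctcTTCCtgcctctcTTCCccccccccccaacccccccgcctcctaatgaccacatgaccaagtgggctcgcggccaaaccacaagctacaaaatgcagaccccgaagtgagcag
Among 32851 promoters of this length 93.4% held GGAA, with a median of 3 matches, 10.8% held CAGGAAG and 6.91% held CCGGAAG. A match of letters is a description of the sequence and not a binding site.

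In cvEC-like cells *Apln* stood at 54.6 and 67.4 CPM in controls and at 108 and 89.2 CPM in *Ets1* eKO. Both *Ets1* eKO libraries exceeded both controls, and the highest value was that of *Ets1* eKO replicate 1. The level rose 1.73-fold (log2 change 0.79, SE 0.16), with an adjusted p of 0.0425 (edgeR's quasi-likelihood test, Benjamini-Hochberg, 3.64e-07 to 0.286 over the alternatives), higher in 2 of 2 *Ets1* eKO libraries. The log2 change lay between 0.63 and 0.93 in 13 alternatives and passed the threshold in 8 of them. The call was lost with total count scaling (0.70), a stricter gate (0.76), a looser gate (0.82), the *Xist* level as a term (0.76) and without control replicate 1 (0.63).

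Of the 1727 *Apln* UMIs in all cells kept 74.2% were in cvEC-like cells, and each of the other 7 named classes had a mean below 1 CPM. Endothelial cells in none of the subtypes held 14.2 and 14.7 CPM in controls against 19.7 and 49.6 CPM in *Ets1* eKO, and cells of no class 4.07 and 1.13 CPM against 6.56 and 6.46 CPM. In either set each *Ets1* eKO value exceeded each control value, and no test was made. The cvEC-like class (79.8 ± 23.5 CPM, n = 4) was followed by vEndo-like cells at 0.88 ± 0.86 CPM, with no overlap between them, and the ranges of all later neighbours overlapped. Immune-like cells held 0 *Apln* UMIs. With 19 UMIs in mEndo-like cells, *Apln* was not tested there, and the class by condition term (log2 -0.25, SE 0.59, -0.77 to 1.36 over the alternatives) did not pass the threshold, so a difference between the classes was not detectable at this depth.

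Within cvEC-like cells of 1 sex the levels did not overlap between genotypes. In each sex 1 genotype rested on a single library, so the lack of overlap says little. Cells with Y-linked but no *Xist* UMIs held 53.0 CPM of *Apln* in control replicate 1, 64.3 CPM in control replicate 2 and 125 CPM in *Ets1* eKO replicate 1. Those with *Xist* but no Y-linked UMIs held 66.0 CPM in control replicate 2, 93.7 CPM in *Ets1* eKO replicate 1 and 91.3 CPM in *Ets1* eKO replicate 2. In the libraries that held both sexes, the *Xist* cells were at 66.0 CPM against 64.3 CPM for Y-linked cells in control replicate 2 and at 93.7 CPM against 125 CPM in *Ets1* eKO replicate 1. Parts of 1 library are not independent samples, and no test was made on them.

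**Figure D2:**
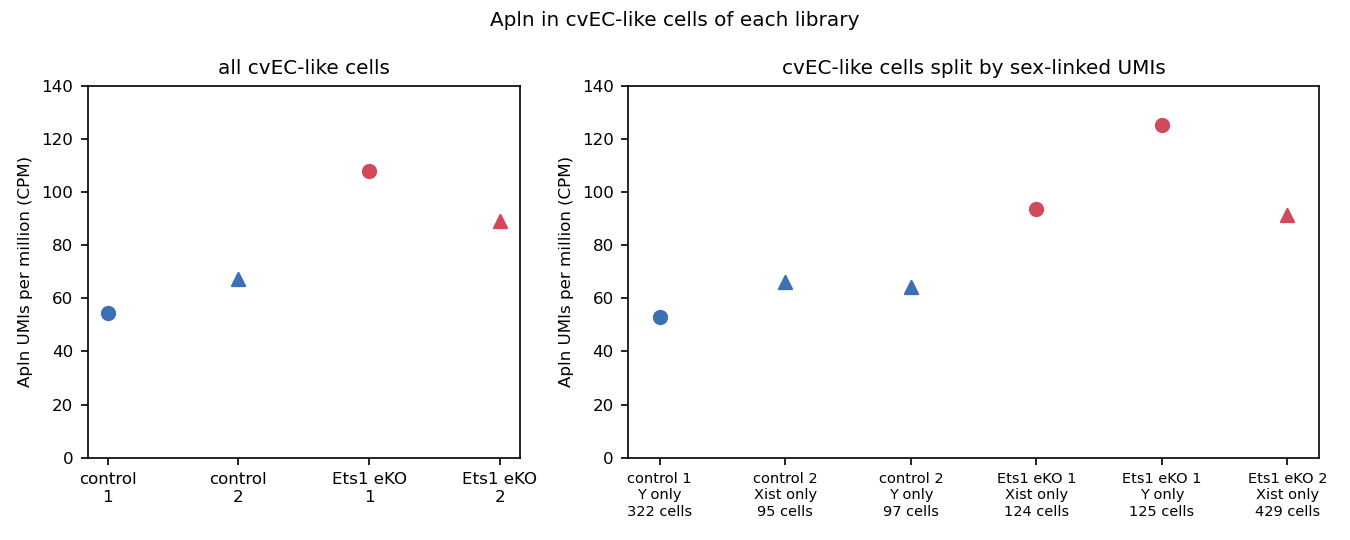
*Apln* level (CPM, y axis) in cvEC-like cells of each library (left) and in the cells of each library with only *Xist* or only Y-linked UMIs (right, with the number of cells under each point). The *Ets1* eKO points lie above the control points in both panels.

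The share of cvEC-like cells with an *Apln* UMI was compared after each cell was thinned to 2000 UMIs, which left out 11 cells of controls and also 43 of *Ets1* eKO as shallower. It was 10.0% (38 of 380 cells, exact 95% interval 7.17% to 13.5%) and 8.13% (17 of 209, 4.81% to 12.7%) in controls, and 17.6% (52 of 295, 13.5% to 22.5%) and 14.7% (73 of 496, 11.7% to 18.1%) in *Ets1* eKO. Both *Ets1* eKO shares were above both controls, by 7.11 points on average, but the intervals of *Ets1* eKO replicate 2 overlapped those of both controls and that of *Ets1* eKO replicate 1 overlapped that of control replicate 1. An exact two-sided permutation test over libraries gave p = 0.33, the smallest that 2 against 2 libraries allow. Without thinning the shares were 33.9% and 40.4% in controls against 47.2% and 33.8% in *Ets1* eKO, where the shallow *Ets1* eKO replicate 2 was lowest. Thinned to 1000 UMIs they were 3.38% and 6.60% against 6.49% and 7.77%, a difference of 2.14 points with groups that overlapped (exact permutation p = 0.667). Immune-like cells, taken as background, had 0 thinned cells with an *Apln* UMI in all 4 libraries, at a median of 4820 UMIs before thinning against 9080 in cvEC-like cells. For the 152, 87, 180 and 246 immune-like cells thinned, a count of 0 allows shares of up to 1.97%, 3.45%, 1.67% and 1.22%. That limit is 3 counts over the number of cells, and the exact 95% intervals reach 2.40%, 4.15%, 2.03% and 1.49%. These intervals and limits cover counting error only.

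The cvEC-like class was divided by arterial and venous marker scores into 211 arterial-like, 382 venous-like and 841 other cells, with 101 and 279 of 1434 cells within 0.1 of the arterial and the venous threshold. *Apln* was present in all 3. In arterial-like cells it stood at 54.4 and 61.7 CPM in controls and at 106 and 114 CPM in *Ets1* eKO, and in the other cells at 54.6 and 70.9 CPM against 112 and 93.1 CPM. Neither pair of groups overlapped. Venous-like cells held 54.6 and 64.6 CPM in controls against 101 and 62.6 CPM in *Ets1* eKO, so there *Ets1* eKO replicate 2 lay within the range of the controls. At 2000 UMIs, *Apln* was seen in 7.46% and 9.38% of arterial-like cells of controls and in 22.9% and 20.3% of those of *Ets1* eKO (exact permutation p = 0.33), with wide intervals on 32 to 67 cells. Without thinning these shares were 38.8% and 37.5% against 60.4% and 48.4%. In venous-like cells the thinned shares were 11.1% and 9.38% against 17.1% and 9.43% (exact permutation p = 0.667), and their difference of 3.01 points became -0.81 without *Ets1* eKO replicate 1 and -6.34 without thinning. Thinned to 1000 UMIs, the venous-like shares were 3.15% and 4.69% against 7.32% and 5.61%, a difference of 2.54 points without overlap. In the other cvEC-like cells the difference was 7.23 points at 2000 UMIs and 0.21 points at 1000 UMIs, where the groups overlapped. Differences between these subsets were not tested.

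Sums of marker genes in cvEC-like cells differed between libraries too. The 8 cvEC markers, all detected, summed to 8358 and 6968 CPM in controls and to 9169 and 10508 CPM in *Ets1* eKO, with *Fabp4* the most abundant (7424 CPM). The 5 lymphatic markers summed to 77.6 and 110 CPM against 60.9 and 57.3 CPM, with *Flt4* the most abundant (63.0 CPM) and all detected. Markers of fibroblasts (8 genes, at most 43.5 CPM in a library, led by *Col3a1*) and immune cells (10 genes, at most 9.59 CPM, led by *Coro1a*) were low, and neither was higher in *Ets1* eKO. Cardiomyocyte markers (10 genes, led by *Tpm1*) summed to 743 and 541 CPM against 745 and 870 CPM, and erythroid markers (7 genes, led by *Hbb-bs*) to 162 and 63.6 CPM against 166 and 216 CPM. The part of these differences in the *Apln* result was not tested. The genes most like *Apln* over the 32 points were *Nos2*, *Tmem252* and *Esm1* (r 0.97, 0.96 and 0.96), and among the members its pattern was nearest that of *Aplnr* (r 0.90).

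*Tek* (ENSMUSG00000006386, chromosome 4 from 94739289 to 94874976, GRCm38) encodes Tie2, the receptor of both angiopoietins. Its promoter is shown because it also drives the Cre of this model. In the 250 bases before the start (chr4:94739039-94739288, plus strand, 5′ to 3′, capitals as above) it held 2 matches of GGAA, both on the opposite strand, and 0 of CCGGAAG or CAGGAAG.
Tek: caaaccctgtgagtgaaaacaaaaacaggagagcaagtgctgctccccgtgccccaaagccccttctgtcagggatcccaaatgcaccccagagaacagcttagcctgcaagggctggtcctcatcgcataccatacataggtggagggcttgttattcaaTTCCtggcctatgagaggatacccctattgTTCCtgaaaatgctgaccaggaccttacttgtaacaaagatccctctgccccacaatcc
*Tek* was highest in endocardium. In mEndo-like cells it stood at 530 and 475 CPM in controls and at 714 and 614 CPM in *Ets1* eKO, and in vEndo-like cells at 456 and 528 CPM against 740 and 600 CPM. Each *Ets1* eKO library lay above both controls in both classes.

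The log2 difference of *Tek* in mEndo-like cells was 0.47 (SE 0.15), with an adjusted p of 0.0992 (edgeR's quasi-likelihood test, Benjamini-Hochberg, 0.00764 to 0.506 over the alternatives), so it did not pass the threshold although both *Ets1* eKO libraries were higher. In 4 of 13 alternatives it did: with DESeq2 (0.48), no filter on low counts (0.47), a crossed pairing chosen after seeing the data (0.47) and without *Ets1* eKO replicate 2 (0.56). Cells with only Y-linked UMIs held 539 CPM in control replicate 1, 486 CPM in control replicate 2 and 748 CPM in *Ets1* eKO replicate 1. Those with only *Xist* held 475 CPM in control replicate 2, 714 CPM in *Ets1* eKO replicate 1 and 627 CPM in *Ets1* eKO replicate 2. Within each sex the *Ets1* eKO values were the higher ones, but 1 genotype rested on a single library each time and no test was made. In vEndo-like cells the log2 difference was 0.48 (SE 0.17) and in cvEC-like cells 0.31 (SE 0.14), and 0 of 13 alternatives passed the threshold in either class.

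In cvEC-like cells *Tek* stood at 132 and 118 CPM in controls and at 152 and 139 CPM in *Ets1* eKO, without overlap. The class by condition term was -0.18 (SE 0.10) on the log2 scale and did not pass the threshold, so the differences in mEndo-like and cvEC-like cells were not shown to be unequal. Thinned to 2000 UMIs, 60.5% and 59.2% of mEndo-like cells of controls against 69.2% and 67.8% of those of *Ets1* eKO had a *Tek* UMI (exact permutation p = 0.33, the smallest possible). This left out 72 cells of controls and also 142 of *Ets1* eKO, and the median depth before thinning was 5833.5 UMIs, against 4820 in immune-like cells. Immune-like cells had shares of 0%, 0%, 1.11% and 0.81%, where the counts of 0 allow up to 1.97% and 3.45%. Without thinning the mEndo-like shares were 90.2% and 90.6% against 94.0% and 86.1%, and the direction of their mean difference turned (-0.34 points).

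Over all libraries the order of *Tek* was mEndo-like (583 ± 105 CPM, n = 4) and vEndo-like cells (581 ± 121), which overlapped, then epicardial-like (156 ± 22.8) and cvEC-like cells (135 ± 14.3), which also overlapped. Fibroblast-like (37.6 ± 3.74) and mural-like cells (30.8 ± 6.70) came next and overlapped with each other, and cardiomyocyte-like (4.53 ± 2.58) and immune-like cells (2.96 ± 2.58) were lowest. The low means depended on the gate: cardiomyocyte-like cells held 7.47 CPM under a stricter and 7.39 CPM under a looser one, and immune-like cells 3.94 and 5.94 CPM. The gap between vEndo-like and epicardial-like cells, that between cvEC-like and fibroblast-like cells and that between mural-like and cardiomyocyte-like cells exceeded the range of the libraries.

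The level in epicardial-like cells was not accompanied by the other endothelial members. *Tek* stood at 174 and 140 CPM in controls and at 177 and 133 CPM in *Ets1* eKO, whereas *Tie1* averaged 0.44 CPM and *Ptprb* 1.6 CPM in the same cells. The *Tek* groups overlapped (log2 difference 0.06, SE 0.19). The 10 endothelial markers summed to only 66.8, 56.7, 61.6 and 97.1 CPM there, with *Egfl7* the most abundant (16.5 CPM) and all 10 detected, against at least 5375 CPM in mEndo-like cells. The 6 genes of the mEndo list, however, summed to between 2110 and 2449 CPM, led by *Tmem108* and with 1 gene at 0. At 2000 UMIs, 36.4%, 24.3%, 24.5% and 21.2% of epicardial-like cells had a *Tek* UMI (controls first), which left out 6 cells of controls and 19 of *Ets1* eKO. These shares were above those of immune-like cells in every library. Unthinned they were 64.6%, 59.8%, 65.1% and 42.7%.

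In cardiomyocyte-like cells *Tek* was low, with 2.62 and 3.04 CPM in controls against 4.18 and 8.27 CPM in *Ets1* eKO. The highest value was that of *Ets1* eKO replicate 2. The log2 difference of 1.27 (SE 0.33) had an adjusted p of 0.466 (edgeR's quasi-likelihood test, Benjamini-Hochberg, 0.000709 to 0.987 over the alternatives). It passed the threshold with DESeq2 (1.28), with the replicate number as a block (1.17) and without *Ets1* eKO replicate 1 (1.70). Deviations of libraries with equal numbers correlated at -0.374 in this class, so the block is no sign of pairs. The 10 endothelial markers, all detected in cardiomyocyte-like cells and led by *Egfl7* (9.96 CPM), summed to 36.8 and 32.2 CPM in controls and to 28.2 and 82.99 CPM in *Ets1* eKO. They were thus highest in *Ets1* eKO replicate 2, as *Tek* was, but in *Ets1* eKO replicate 1 they lay below both controls while *Tek* lay above. Their part in the *Tek* difference was not tested. The genes most like *Tek* over the 32 points were *Slc9a3r2*, *Palm* and *Csgalnact1* (r 0.95, 0.94 and 0.94).

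*Tie1* (ENSMUSG00000033191, chromosome 4 from 118471191 to 118490061, GRCm38) encodes the receptor that pairs with Tie2 and modulates its signal. It was found in the endothelial classes, in the order mEndo-like (245 ± 24.2 CPM, n = 4), vEndo-like (184 ± 32.5) and cvEC-like cells (132 ± 15.3). The ranges of these neighbours overlapped across libraries, while within each library the order was the same. The other 5 named classes averaged at most 1.71 CPM under the main gate and were separate from cvEC-like cells, while under a looser gate fibroblast-like cells averaged 5.97 CPM and immune-like cells 3.52 CPM. Endothelial cells in none of the subtypes averaged 173 CPM, with 170 and 167 CPM in controls against 175 and 179 CPM in *Ets1* eKO. Cells of no class averaged 67.8 CPM, with 60.7 and 51.4 CPM against 97.0 and 62.1 CPM. Each *Ets1* eKO value of *Tie1* exceeded each control value in either set, and no test was made. In mEndo-like cells it stood at 263 and 253 CPM in controls and at 255 and 209 CPM in *Ets1* eKO, in vEndo-like cells at 193 and 196 CPM against 210 and 136 CPM, and in cvEC-like cells at 142 and 143 CPM against 132 and 110 CPM. The groups overlapped in endocardium, and in cvEC-like cells both *Ets1* eKO libraries were the lower ones.

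The log2 differences of *Tie1* were -0.09 (SE 0.14) in mEndo-like, -0.12 (SE 0.19) in vEndo-like and -0.15 (SE 0.14) in cvEC-like cells, and 0 of 13 alternatives passed the threshold in any of them. *Ets1* eKO replicate 2 decided the sign in endocardium: without it the log2 differences were 0.03 in mEndo-like and 0.14 in vEndo-like cells. *Tek* and *Tie1* therefore had estimates of unlike sign in the same cells, but neither passed the test. The RefSeq start of *Tie1* lies 212 bases downstream of the GENCODE start, and the 250 bases before it held 7 matches of GGAA and 0 of CCGGAAG or CAGGAAG. The genes most like *Tie1* were *Ccm2l*, *Cd93* and *Vwf* (r 0.98 each, 32 points).

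*Aplnr* (ENSMUSG00000044338, chromosome 2 from 85136225 to 85139923, GRCm38) encodes the receptor of apelin. Of its 1953 UMIs 77.0% were in cvEC-like cells, at 96.4 and 97.9 CPM in controls and at 96.8 and 75.4 CPM in *Ets1* eKO. The groups overlapped, and *Ets1* eKO replicate 2 was the lowest library. The order was cvEC-like (91.6 ± 10.8 CPM, n = 4), separate from vEndo-like (4.20 ± 2.75) and mEndo-like cells (2.47 ± 1.28), which overlapped, with the other 5 named classes below 1 CPM on average. Endothelial cells in none of the subtypes averaged 28.3 CPM and cells of no class 5.90 CPM. The log2 difference in cvEC-like cells was -0.09 (SE 0.15), and it was 0.07 without *Ets1* eKO replicate 2 and 0.04 with the *Xist* level as a term. So the receptor gene showed no detectable difference in the class where the ligand gene rose, and the comparison of these changes with each other was not tested.

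In mEndo-like cells *Aplnr* was scarce, with 3.23 and 3.75 CPM in controls against 2.00 and 0.91 CPM in *Ets1* eKO. Both *Ets1* eKO libraries lay below both controls. The log2 difference of -1.23 (SE 0.44) had an adjusted p of 0.132 (edgeR's quasi-likelihood test, Benjamini-Hochberg, 0.0311 to 0.654 over the alternatives), and only without *Ets1* eKO replicate 1 did it pass the threshold (-1.83). The class by condition term was 1.11 (SE 0.36), the difference of the cvEC-like from the mEndo-like change, with an adjusted p of 0.0771 (edgeR's quasi-likelihood test, Benjamini-Hochberg, 0.0665 to 0.674 over the alternatives), so the classes were not shown to differ. At 2000 UMIs *Aplnr* was seen in 0.73% and 0.42% of mEndo-like cells of controls and in 0.60% and 0.18% of those of *Ets1* eKO (1.88% and 2.82% against 1.41% and 0.45% without thinning). Thinned immune-like cells held 0 *Aplnr* UMIs, and since their numbers allow shares of up to 1.22% to 3.45%, they do not tell the mEndo-like shares from background. Thinned shares in the larger cardiomyocyte-like and fibroblast-like classes were at most 0.075% in a library. The levels of vEndo-like cells, where *Aplnr* was not tested, went the other way. They were 3.52 and 0.76 CPM in controls against 5.31 and 7.23 CPM in *Ets1* eKO, on 5, 1, 7 and 7 UMIs.

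The receptor divided the cvEC-like cells in a way the ligand did not. In arterial-like cells *Aplnr* stood at 3.14 and 8.51 CPM in controls and at 7.28 and 9.80 CPM in *Ets1* eKO, whereas in venous-like cells it stood at 150 and 189 CPM against 203 and 124 CPM. The remaining cvEC-like cells lay between, at 90.6 and 65.3 CPM against 69.1 and 72.1 CPM. These 3 ranges of CPM did not overlap, while the genotype groups overlapped in CPM in each subset. Thinned to 2000 UMIs, 22.2% and 32.8% of venous-like cells of controls against 36.6% and 24.5% of those of *Ets1* eKO had an *Aplnr* UMI, against 1 of 67, 1 of 32, 0 of 48 (which allows up to 6.25%) and 1 of 64 arterial-like cells. Without thinning the venous-like shares were 70.9% and 81.2% against 72.0% and 50.5%, and the arterial-like ones 4.48% and 12.5% against 6.25% and 7.81%. The remaining cvEC-like cells had shares of 19.3% and 15.9% in controls against 8.48% and 12.3% in *Ets1* eKO at 2000 UMIs. These did not overlap (exact permutation p = 0.33). At 1000 UMIs they were 7.85% and 4.31% against 6.74% and 7.27%, where the groups overlapped. Venous-like cells had a median of 13639 and 14365 UMIs before thinning in controls and of 10843 and 5778 in *Ets1* eKO, against 11193 and 12655.5 and then 8732 and 6608 in arterial-like cells, so venous-like cells were the deeper ones except in *Ets1* eKO replicate 2. Since arterial and venous markers defined the subsets, and genes of a vessel type go together, this order is a description with no test.

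**Figure D3:**
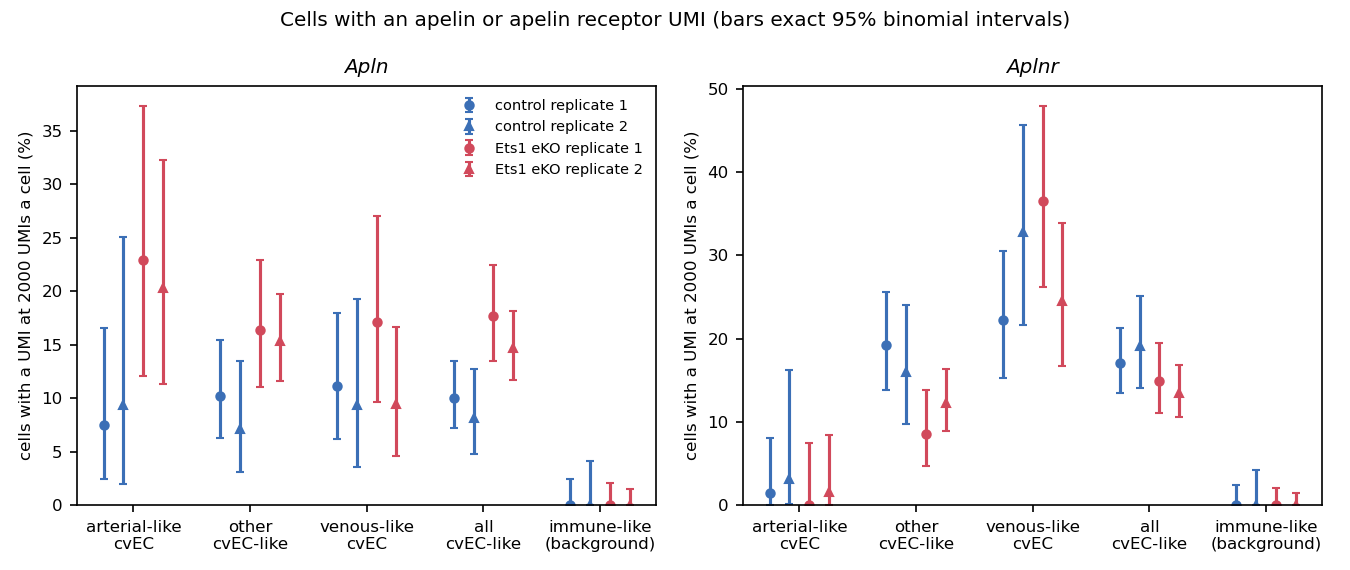
Share of cells with an *Apln* (left) or *Aplnr* (right) UMI at 2000 UMIs a cell (percent, y axis) in subsets of cvEC-like cells, all cvEC-like cells and immune-like cells, with 1 point a library and exact 95% binomial intervals as bars. *Apln* was seen in every cvEC-like subset, whereas *Aplnr* was seen at this depth in at most 1 arterial-like cell a library.

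Ligand and receptor were seen together in few cells. Among thinned cvEC-like cells 4 of 380 and 3 of 209 in controls, and 6 of 295 and 11 of 496 in *Ets1* eKO, had a UMI of both *Apln* and *Aplnr*. Independent detection would give 6.50, 3.25, 7.76 and 9.86 cells. The counts lay below these numbers in 3 libraries and above in *Ets1* eKO replicate 2, and the departure from independence was not tested. For *Aplnr* in cvEC-like cells as a whole the thinned shares were 17.1% and 19.1% in controls against 14.9% and 13.5% in *Ets1* eKO (exact permutation p = 0.33), and 47.0% and 47.4% against 41.5% and 32.8% without thinning. *Prnd*, *Btnl9* and *Gm32688* were most like *Aplnr* over the 32 points (r 0.95, 0.93 and 0.93).

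*Ptprb* (ENSMUSG00000020154, chromosome 10 from 116275523 to 116389535, GRCm38) encodes VE-PTP, the phosphatase that acts on Tie2. Its level differed among the endothelial classes: vEndo-like cells were highest (624 ± 71.2 CPM, n = 4), then cvEC-like (250 ± 44.0), mEndo-like (121 ± 15.1), fibroblast-like (64.5 ± 7.94) and mural-like cells (21.4 ± 5.63). The mural-like mean depended on the gate, with 7.48 CPM under a stricter and 6.99 CPM under a looser one. None of these neighbours overlapped under the main gate, and only the last 3 classes, all under 2 CPM on average, overlapped with one another. *Tek*, by comparison, was alike in mEndo-like and vEndo-like cells, so the receptor and its phosphatase had different orders over the classes. In vEndo-like cells *Ptprb* stood at 634 and 710 CPM in controls and at 617 and 536 CPM in *Ets1* eKO, in cvEC-like cells at 283 and 291 CPM against 225 and 201 CPM, and in mEndo-like cells at 131 and 136 CPM against 113 and 104 CPM. Both *Ets1* eKO libraries were below both controls in each of the 3 classes, which come from the same libraries and so do not repeat the comparison independently.

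The log2 differences of *Ptprb* were -0.19 (SE 0.17) in vEndo-like, -0.34 (SE 0.14) in cvEC-like and -0.24 (SE 0.13) in mEndo-like cells, and 0 of 13 alternatives passed the threshold in any class. In cvEC-like cells the adjusted p was 0.341 (edgeR's quasi-likelihood test, Benjamini-Hochberg, 0.0774 to 0.977 over the alternatives). In vEndo-like cells the estimate was 0.06 with a stricter gate, which also raised the mean level there to 816 CPM. The class by condition term was -0.13 (SE 0.10). Thinned to 2000 UMIs, 21.7% and 22.0% of mEndo-like cells of controls against 17.8% and 16.5% of those of *Ets1* eKO had a *Ptprb* UMI (exact permutation p = 0.33), and unthinned 49.5% and 53.2% against 46.0% and 32.9%. No thinned immune-like cell had one, which for the 246 cells of *Ets1* eKO replicate 2 allows a share of up to 1.22%. *Jam2*, *Rgs16* and *Ptprm* were most like *Ptprb* (r 0.97, 0.95 and 0.95, 32 points). Among the members it correlated with *Tie1* (r 0.81) and *Tek* (r 0.72) over the same points.

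**Figure D4:**
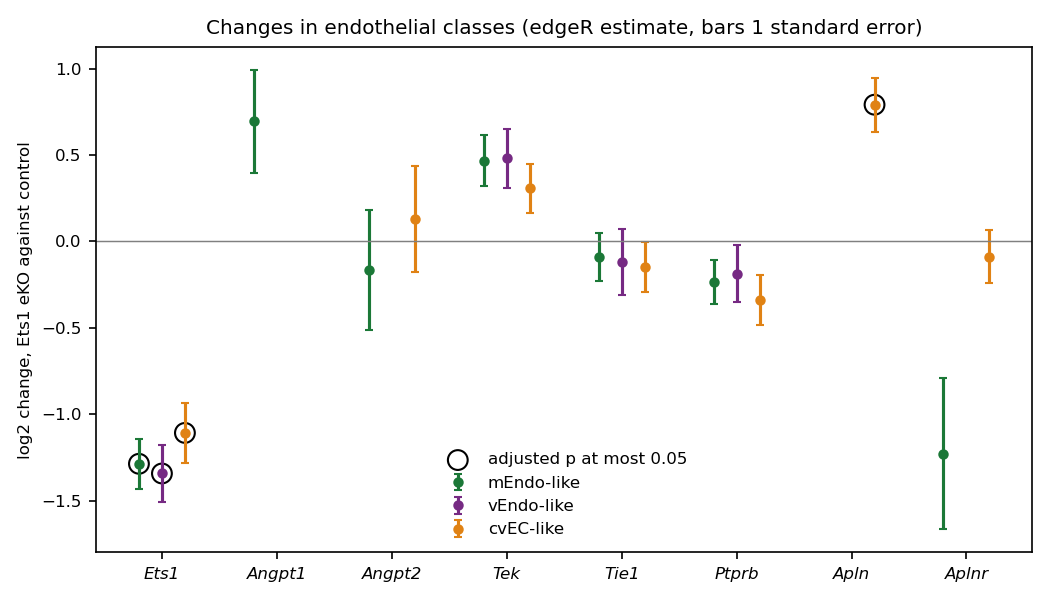
Log2 change in *Ets1* eKO against control (y axis, edgeR estimate with bars of 1 SE) of *Ets1* and the 7 genes in mEndo-like, vEndo-like and cvEC-like cells, shown where a gene had enough counts for a test. Circles mark an adjusted p of at most 0.05, reached by *Ets1* in 3 classes and by *Apln* in cvEC-like cells.

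Other genes of the angiopoietin and Tie pathway were described from a list of 16, which holds adaptors, the PI3 kinase and Akt branch, Foxo factors, integrin subunits and *Nos3*. In mEndo-like cells 0 of 15 tested rose and 1 fell, beside 3.74% of all genes in either direction, with a median log2 change of -0.12 against 0.00 over all genes tested. In vEndo-like and cvEC-like cells edgeR called 0 of 13 each, with 1 at an unadjusted p under 0.05 and 0 by DESeq2 in each, and medians of -0.09 and -0.16 against 0.01 and 0.01. Over all genes tested, an unadjusted p under 0.05 held for 2845 in mEndo-like, 1055 in vEndo-like and 1481 in cvEC-like cells. DESeq2 called 408, 24 and 67 genes there, in the same order. The gene that fell was *Foxo1*, a transcription factor that Tie2 signalling through Akt is known to keep out of the nucleus. It stood at 259 and 250 CPM in mEndo-like cells of controls and at 169 and 137 CPM in those of *Ets1* eKO. Both *Ets1* eKO libraries lay below both controls, with a log2 change of -0.67 (SE 0.14) and an adjusted p of 0.0239 (edgeR's quasi-likelihood test, Benjamini-Hochberg, 1.09e-05 to 0.476 over the alternatives). The call was lost without control replicate 1 (-0.67), without control replicate 2 (-0.65), with a looser gate (-0.68) and with the *Xist* level as a term (-0.55).

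The class markers of mEndo-like cells, given above, were lower in *Ets1* eKO as well, and markers of other classes moved there too. The 8 cvEC markers, all detected and led by *Fabp4* (71.6 CPM), summed to 105 and 126 CPM in controls and to 191 and 250 CPM in *Ets1* eKO. The 8 fibroblast markers, all detected and led by *Col3a1* (258 CPM), summed to 527 and 484 CPM against 689 and 665 CPM. Their part in the *Foxo1* result was not tested.

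Of the 14 other genes of the apelin pathway, which include *Apela*, G protein subunits, arrestins, histone deacetylases and Mef2 factors, 0 of 11 tested rose and 1 fell in mEndo-like cells, beside 3.74% of all genes (median -0.24 against 0.00 over all genes). In vEndo-like cells edgeR called 0 of 12, with 2 at an unadjusted p under 0.05 and 0 by DESeq2 (median -0.14 against 0.01), and in cvEC-like cells 0 of 11, with 1 at an unadjusted p under 0.05 and 0 by DESeq2 (median -0.04 against 0.01). *Arrb1*, an arrestin that binds activated G protein-coupled receptors, was at 46.5 and 45.3 CPM in mEndo-like cells of controls and at 29.9 and 21.7 CPM in those of *Ets1* eKO. Its log2 change was -0.77 (SE 0.17), lower in 2 of 2 *Ets1* eKO libraries, with an adjusted p of 0.0296 (edgeR's quasi-likelihood test, Benjamini-Hochberg, 4.83e-05 to 0.423 over the alternatives). The call was lost with a looser gate (-0.79) and with the *Xist* level as a term (-0.60).

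Since *Apln* is known as a tip cell and hypoxia gene, lists of 11 tip cell and 12 hypoxia genes were read as well. In cvEC-like cells 2 of 11 tip cell genes rose and 0 fell, beside 0.803% of all genes tested in either direction, with a median log2 change of 0.18 against 0.01 over all genes tested. Estimates were above 0 for 6 of the 11 and below 0 for the others. The lowest were those of *Dll4* (-0.57, SE 0.14) and *Unc5b* (-0.43, SE 0.14). Their adjusted p was 0.111 and 0.222 (edgeR's quasi-likelihood test, Benjamini-Hochberg), so neither passed. Of the 11 genes 5 had an unadjusted p under 0.05, these falling genes among them, and DESeq2 called 2. *Pgf*, which encodes placental growth factor, stood at 23.4 and 23.8 CPM in controls and at 68.2 and 62.8 CPM in *Ets1* eKO. *Adm*, which encodes the vasodilator adrenomedullin, stood at 31.2 and 24.7 CPM against 65.2 and 53.3 CPM. For both genes the 2 *Ets1* eKO libraries lay well above the controls. Their log2 changes were 1.56 (SE 0.15) and 1.15 (SE 0.17), with adjusted p = 0.00066 and 0.00926 (edgeR's quasi-likelihood test, Benjamini-Hochberg), and all 13 alternatives passed the threshold for each (adjusted p 1.76e-16 to 0.00249 and 1.65e-10 to 0.0379). The remaining 9 genes of the list did not pass, among them *Esm1* (24.7 and 28.6 CPM against 22.6 and 35.7 CPM), whose pattern over the classes was close to that of *Apln*. In mEndo-like cells edgeR called 0 of 8 tip cell genes, with 2 at an unadjusted p under 0.05 and 0 by DESeq2 (median 0.35 against 0.00).

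In vEndo-like cells 0 of 7 tip cell genes rose and 1 fell, beside 0.432% of all genes (median 0.00 against 0.01), the netrin receptor gene *Unc5b*, from 45.0 and 44.2 CPM in controls to 19.0 and 15.5 CPM in *Ets1* eKO. Its log2 change was -1.32 (SE 0.27), lower in 2 of 2 *Ets1* eKO libraries, with an adjusted p of 0.0457 (edgeR's quasi-likelihood test, Benjamini-Hochberg, 0.00168 to 0.486 over the alternatives). The call was lost in 7 of 13 alternatives, among them those that left out control replicate 1 (-1.29), *Ets1* eKO replicate 1 (-1.48) or *Ets1* eKO replicate 2 (-1.20). *Unc5b* is also one of the 8 arterial markers. Of these markers edgeR called 0 of 8 in cvEC-like cells, with 4 at an unadjusted p under 0.05 and 0 by DESeq2 (median -0.42 against 0.01), and 2 of the 8 estimates were above 0.

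Of the hypoxia genes 1 of 11 tested rose in cvEC-like cells and 0 fell, beside the same 0.803% of all genes, with 10 estimates above 0 and a median log2 change of 0.38 against 0.01 over all genes. *Vegfa*, which encodes the main endothelial growth factor of sprouting, stood at 19.5 and 20.5 CPM in controls and at 36.4 and 44.0 CPM in *Ets1* eKO. Both *Ets1* eKO libraries exceeded both controls, with a log2 change of 1.10 (SE 0.18) and an adjusted p of 0.0136 (edgeR's quasi-likelihood test, Benjamini-Hochberg, 5.44e-08 to 0.133 over the alternatives), and the call was lost only with the *Xist* level as a term (0.90). In mEndo-like cells edgeR called 0 of 11, with 3 at an unadjusted p under 0.05 and 1 by DESeq2 (median 0.32 against 0.00), and in vEndo-like cells 0 of 9, with 0 at an unadjusted p under 0.05 and 0 by DESeq2 (median 0.11 against 0.01). These lists were chosen with earlier results of these data known.

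**Figure D5:**
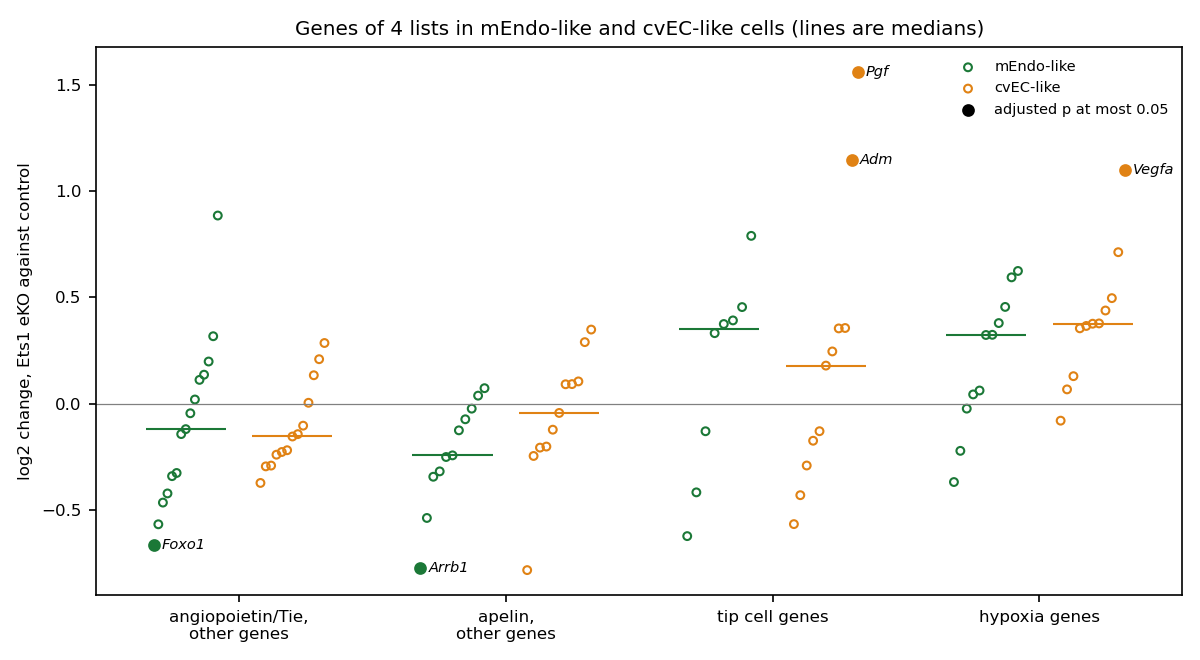
Log2 change in *Ets1* eKO against control (y axis) of each tested gene of 4 lists (x axis) in mEndo-like and cvEC-like cells, with lines at the medians and filled, named points for an adjusted p of at most 0.05. *Foxo1* and *Arrb1* fell in mEndo-like cells, and *Pgf*, *Adm* and *Vegfa* rose in cvEC-like cells.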

How the data were processed

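The authors deposited a UMI count matrix for each of 2 control and 2 *Ets1* eKO libraries, made with Cell Ranger 7.1.0 on mm10 (their notes also name Seurat 4.3.0). The values are whole counts without normalization. The authors' methods name CellBender for background and DoubletFinder for doublets. Whether the deposited matrices come before or after those steps is not stated, and neither was run here. The cell filter asked for 200 to 7000 genes, mitochondrial counts up to 20%, ribosomal up to 35% and hemoglobin up to 2%. Each cell was scored for marker lists (mean of ln(1 + counts per 10000 UMIs)). Thresholds were set at troughs after seeing the score distributions: 2.25 for cardiomyocyte, 0.75 for endothelial, fibroblast, mural and epicardial, 1 for immune, 0.6 for mEndo, cvEC, arterial and venous and 0.5 for vEndo. Cells past the thresholds of 2 or more main lists belonged to no class, save mural-like and epicardial-like cells past the fibroblast one, and all classes but cardiomyocyte-like also needed a cardiomyocyte score under 1.5.

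UMIs summed per library and class were tested with edgeR 4.0.16 (TMM, filterByExpr, quasi-likelihood, Benjamini-Hochberg at 0.05) in R 4.3.3, checked on simulated counts. SE is the log2 change over the square root of F. Class differences were tested in a fit with terms for library, for class and for class by condition. Each p measures the spread between 2 pooled libraries a group, which leaves 2 residual degrees of freedom. The alternatives comprised DESeq2 1.42.0, scaling by total counts, no low-count filter, a block for the replicate number, leaving out 1 library at a time, stricter and looser gates and a stricter cell filter, and, chosen after seeing the data, a crossed block and the *Xist* level as a term. Shares used cells thinned to 2000 UMIs (seed 0), exact binomial intervals and exact permutation. The share that a count of 0 allows was taken as 3 counts over the number of cells, which lies below the upper end of the exact interval. Other steps used Python 3.11.15, numpy 2.4.6, pandas 2.3.3, scipy 1.17.1 and matplotlib 3.10.9. Positions follow GENCODE vM21. The named genes are the 7 members, *Ets1*, the 3 genes most like each member and list genes past the threshold in mEndo-like or cvEC-like cells. *Unc5b*, *Nos3* and *P4ha1* lie outside that rule and are named because they passed in vEndo-like cells or for the class by condition term. *Dll4*, also outside it, is named for the lowest estimate among the tip cell genes in cvEC-like cells. Members and lists were chosen with earlier results of these data known.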

Additional observations from a re-analysis of the deposited data

Results flagged for a closer look

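The class by condition term, which tests whether the log2 change in cvEC-like cells differs from that in mEndo-like cells, passed the threshold by edgeR for 2 of 15 tested genes of the angiopoietin and Tie list, 0 of 11 of the apelin list (2 at an unadjusted p under 0.05), 1 of 11 tip cell genes and 1 of 11 hypoxia genes, beside 428 of 13050 genes (3.28%). Over all genes the term had an unadjusted p under 0.05 for 1753 and passed by DESeq2 for 49. DESeq2 gave 0 on each of these lists. *Foxo1*, at 259 and 250 CPM in controls against 169 and 137 CPM in *Ets1* eKO in mEndo-like cells and at 106 and 109 against 90.8 and 83.02 CPM in cvEC-like cells, had a term of 0.43 (edgeR's quasi-likelihood test, Benjamini-Hochberg adjusted p = 0.0179, 0.00996 to 0.567 over the alternatives), lost with DESeq2 and without control replicate 1, *Ets1* eKO replicate 1 or *Ets1* eKO replicate 2. *Nos3*, the endothelial nitric oxide synthase, at 157 and 165 against 141 and 138 CPM in mEndo-like and at 109 and 107 against 128 and 119 CPM in cvEC-like cells, had a term of 0.40 (edgeR's quasi-likelihood test, Benjamini-Hochberg adjusted p = 0.028, 0.0263 to 0.689 over the alternatives), lost in 6 of 10 alternatives, among them those without control replicate 2, *Ets1* eKO replicate 1 or *Ets1* eKO replicate 2. *P4ha1*, a collagen prolyl hydroxylase subunit, at 97.0 and 67.8 against 65.8 and 69.1 CPM in mEndo-like and at 78.0 and 82.2 against 98.9 and 104 CPM in cvEC-like cells, had a term of 0.66 (edgeR's quasi-likelihood test, Benjamini-Hochberg adjusted p = 0.000737, 1.02e-07 to 0.499 over the alternatives), lost with DESeq2 and without control replicate 1. *Pgf*, at 2.61 and 2.19 against 2.58 and 1.70 CPM in mEndo-like and at 23.4 and 23.8 against 68.2 and 62.8 CPM in cvEC-like cells, had a term of 1.68 (edgeR's quasi-likelihood test, Benjamini-Hochberg adjusted p = 0.00354, 0.00116 to 0.145 over the alternatives), lost with DESeq2 and without control replicate 1 or *Ets1* eKO replicate 2.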

How the results depend on the processing

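Of 312 alternative values for 25 changes of the members and *Ets1*, 286 kept direction and call, 6 lost the call, 10 gained one and 10 reversed. The log2 change of *Apln* in cvEC-like cells (0.79) kept its sign but passed the threshold no more with total count scaling (0.70), the *Xist* level as a term (0.76), a stricter gate (0.76) and a looser gate (0.82). It ran from 0.63 to 0.93 with 1 library left out and lost its call without control replicate 1, and it was 0.79 with the replicate block. The cause was not tested. Among these the reversed values were those of *Tek* in epicardial-like cells with total count scaling (-0.015) and with 1 library left out (-0.18 to 0.26), *Tie1* with the *Xist* term in mEndo-like (0.029) and vEndo-like cells (0.049) and with 1 library left out (-0.21 to 0.033 and -0.48 to 0.14), *Ptprb* in vEndo-like cells with a stricter gate (0.061), and *Aplnr* in cvEC-like cells with the *Xist* term (0.043) and with 1 library left out (-0.25 to 0.069). Estimates of members outside these 25 crossed 0 as well, among them *Angpt2* in mEndo-like (-0.70 to 0.27) and cvEC-like cells (-0.15 to 0.34), *Tie1* in cardiomyocyte-like cells (-0.19 to 1.18) and the class by condition term of *Apln* (-0.77 to 1.36). Among shares, the difference reversed for *Apln* in venous-like cells with all UMIs (-6.34 points) and with 1 library left out (-0.81 to 6.83), for *Tek* with all UMIs in mEndo-like (-0.34) and cvEC-like cells (-6.68), and for *Tie1* with 1 library left out in mEndo-like (-7.98 to 1.03) and cvEC-like cells (-4.3 to 1.58). Of 19 levels of at least 10 CPM, those that moved by more than their SD were *Tek* with a stricter and a looser gate in fibroblast-like (44.6 and 54.0 CPM) and mural-like cells (21.9 and 21.8 CPM), *Ptprb* in mural-like cells with both (7.48 and 6.99 CPM) and *Ptprb* in vEndo-like cells with a stricter gate (816 CPM). Lower levels moved too, among them, with a looser gate, *Angpt1* in mEndo-like (from 5.48 to 13.7 CPM) and cvEC-like cells (from 1.20 to 5.28 CPM) and *Tie1* in fibroblast-like cells (from 1.37 to 5.97 CPM). The number of changed genes moved more. For mEndo-like, vEndo-like, cvEC-like, cardiomyocyte-like, fibroblast-like, mural-like, epicardial-like and immune-like cells in turn it was 1208, 198, 363, 1, 635, 190, 53 and 64 with no filter on low counts. With 1 library left out it ran from 385 to 2117, 47 to 90, 146 to 1008, 19 to 1882, 113 to 402, 0 to 164, 24 to 65 and 39 to 67, where the lone library of a group is assumed to vary like those of the other. The replicate block, which pairs equal replicate numbers, gave 916, 93, 176, 43, 46, 49 and 45 without immune-like cells. A crossed pairing, chosen after seeing the data, gave 1453, 171, 300, 12, 362 and 60 in mEndo-like, vEndo-like, cvEC-like, cardiomyocyte-like, fibroblast-like and epicardial-like cells. Deviations of libraries with equal numbers correlated at -0.083 in mEndo-like and -0.193 in cvEC-like cells, and over the 8 classes from -0.374 in cardiomyocyte-like to 0.085 in mural-like cells, which gives no sign that equal numbers mark pairs. The *Xist* term, chosen after seeing the data, gave 127 in mEndo-like, 66 in vEndo-like, 9 in cardiomyocyte-like, 100 in fibroblast-like, 268 in mural-like and 47 in immune-like cells. DESeq2 gave 24 in vEndo-like, 27 in cardiomyocyte-like, 138 in fibroblast-like, 2 in mural-like, 0 in epicardial-like and 6 in immune-like cells and 49 for the class by condition term. Total count scaling gave 1 in cardiomyocyte-like, 34 in fibroblast-like and 28 in epicardial-like cells. A stricter gate, which raises the thresholds that leave cells out as well, so that cardiomyocyte-like cells of *Ets1* eKO replicate 2 went from 6738 to 6929, gave 13 in vEndo-like, 53 in cvEC-like, 33 in fibroblast-like and 0 in epicardial-like cells, and a stricter cell filter 5 in epicardial-like cells. A looser gate, which puts a cell past several thresholds in the class of its highest score and drops the limit on the cardiomyocyte score, left 32, 33, 41 and 61 epicardial-like cells of 144, 117, 218 and 239 (controls first) and 47, 45, 26 and 15 mural-like cells, from 100, 126, 63 and 50, so for these classes it is the narrower gate. It gave 178 in mEndo-like, 38 in cvEC-like, 3 in fibroblast-like, 0 in epicardial-like and 3 in immune-like cells and 193 for the class by condition term, which ran from 136 to 560 with 1 library left out and has no block fit since library is already a term. The cause of these moves was not tested.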
